A study of Danio rerio with 8 samples.

Results

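RNA levels were read for 10 genes whose products line the growth cone membrane or bind actin monomers: *gap43*, *basp1*, *marcksl1a*, *marcksl1b*, *marcksa*, *marcksb*, *gpm6aa*, *gpm6ab*, *tmsb* and *tmsb4x*. They were selected by symbol from the 28802 genes of the count table, as axon growth genes of which several were known to hold many reads in these libraries. Their levels and read ranks are therefore given as a description. The rule that chose them did not use the comparison of genotypes, although earlier results of these data were known by then. Each of the 10 symbols had a single row and belongs to a protein-coding gene in RefSeq, and 10 of 10 passed the filter on low counts that left 14824 genes for the genotype test.

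Neurons were sorted from the hindbrain of pooled zebrafish larvae at 72 to 74 hours post-fertilization (hpf) and sequenced in bulk, to ask whether vestibular projection neurons change when their extraocular motor partners are missing. Each of 4 experimental repeats, lettered A to D, gave a library of *phox2a* null larvae (*phox2a*-/-, from stable mutant lines) and a library of their siblings. The siblings were *phox2a*+/+ or *phox2a*+/- and were not told apart. The study used larvae of all the mutant alleles it had made, and which alleles these pools held is not given in the sources used here. Larvae of both genotypes carried Tg(isl1:GFP), the reporter Tg(UAS:E1b-Kaede) and, to drive it, Tg(-6.7Tru.Hcrtr2:GAL4-VP16). The study's experiments were on a *mitfa*-/- background, to remove pigment. The sort took green neurons without separating Kaede from GFP, so a library holds several kinds of neuron. *phox2a* encodes a transcription factor that extraocular motor neurons require, and every cell of a null larva carries the mutation, the sorted neurons included. By in situ hybridization in older larvae, the study found *phox2a* absent from projection neurons of the tangential nucleus. Some neurons of the adjacent medial vestibular nucleus did express it. Repeats A to C were compared, 3 libraries against 3, and repeat D, whose null library had very few reads, is described at the end. Libraries are called by genotype and repeat, so that null C is the library of null larvae in repeat C.

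Gap43, Basp1 and the Marcks proteins are hydrophilic proteins held at the inner face of the plasma membrane by fatty acids, palmitate in Gap43 and myristate in Basp1 and Marcks. In mammalian growth cones they bind acidic phospholipids and calmodulin, are phosphorylated by protein kinase C, and are known for shaping the actin cortex as axons extend and sprout. Gpm6a is a four-pass membrane protein of the proteolipid family that promotes filopodia and neurite growth, and the β-thymosins are short peptides that hold actin monomers in reserve. Zebrafish carry duplicate copies of several of these genes, marked a and b. The names *marcksl1a* and *marcksl1b* need care, because RefSeq lists each of them as an older name of the other. The names here are those of the count table.

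In repeats A to C, gene reads ranged between 9579375 and 16992689 in null and between 18657956 and 19968857 in sibling libraries. Levels are counts-per-million (CPM) on genes, and the limit set by 0 reads, taken as 3 reads, was 0.150 to 0.313 CPM for counting error alone. *phox2a* itself, whose mutant transcript is counted like the functional transcript, had 1125, 2811 and 1015 reads in the null libraries of repeats A, B and C, against 9355, 9465 and 4151 reads in the sibling libraries. In CPM these were 66.2, 185 and 106 in null libraries, against 468, 493 and 222 in sibling libraries. After TMM normalization, which rescales each library by the bulk of its genes, the groups overlapped. *phox2a* was then at 59.8, 169 and 206 CPM in null libraries, against 405, 410 and 201 CPM in sibling libraries. All 14 neuronal markers had reads in each of these 6 libraries, with summed levels of 18509 to 24553 CPM in null and 18000 to 23677 CPM in sibling libraries. *evx2* had 440, 491 and 218 CPM in null libraries, against 340, 460 and 379 CPM in sibling libraries. The study took this gene as a reference for projection neurons, but neurons of the medial vestibular nucleus express it too. Null C stood apart from the rest. It had reads on 11087 genes, against 16675 to 18409 in the other 5, and its TMM factor, which rescales a library by the bulk of its genes, was 0.518 against 1.1 to 1.2. Of its listed reads 62.4% did not align, against 11.8% to 16.1% in the other 5, and 84.3% were on no gene, against 41.2% to 55.2%. Results are therefore given with and without it.

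The 10 genes together took 1.73%, 1.65% and 2.62% of gene reads in the null libraries of repeats A, B and C, against 1.51%, 1.33% and 1.62% in the sibling libraries. Their summed level averaged 20007 ± 5354 CPM in null and 14886 ± 1454 CPM in sibling libraries (SD, n = 3 each). These sums did not overlap between genotypes, but for the 8 membrane protein genes alone they were 16266, 15271 and 13054 CPM in null libraries, against 13928, 12024 and 14959 CPM in siblings, and overlapped. In all 6 libraries *basp1*, *marcksl1b* and *gpm6ab* made up most of the membrane protein reads. In 5 of the 6 libraries these were the only 3 of the 10 genes among the 50 genes with most reads. Null C had 5 there, with *basp1* at rank 29, *marcksl1b* at rank 11, *marcksb* at rank 42, *tmsb* at rank 10 and *tmsb4x* at rank 5, while *gpm6ab* stood at rank 84. Ranks are by reads and not per length, since transcript lengths were not used here, so they do not order the genes by the number of transcripts.

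**Figure D1:**
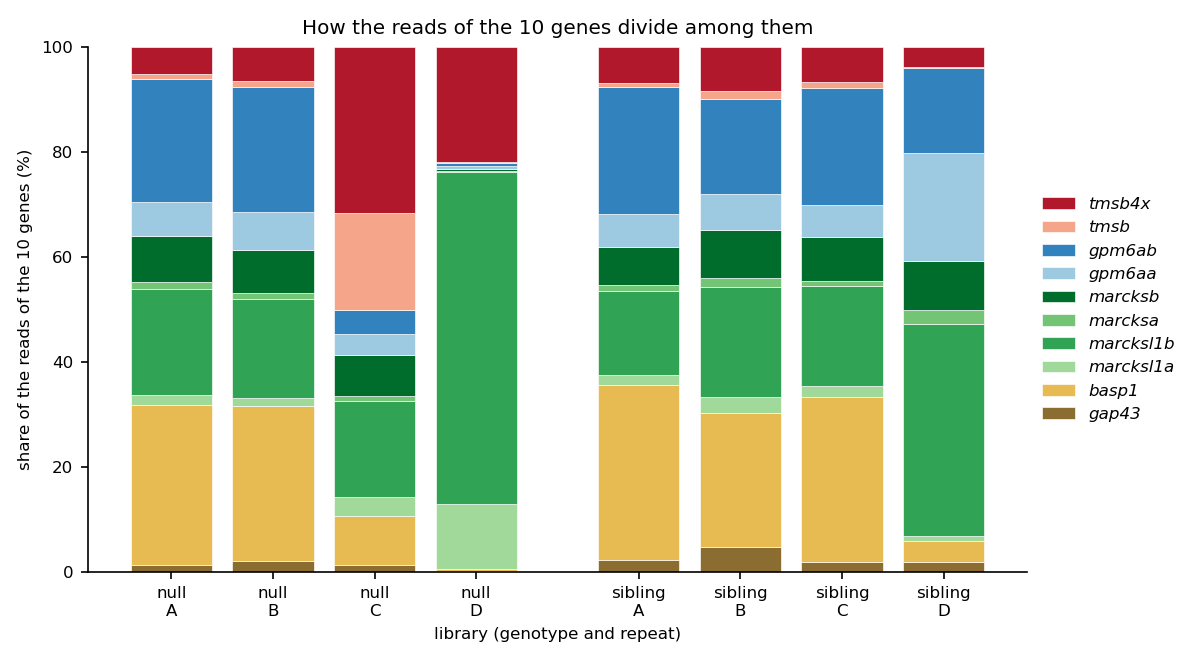
Stacked bars give the share (%) of the reads of the 10 genes that fell on each gene, per library, with null libraries of repeats A to D on the left and sibling libraries on the right. The 2 β-thymosins took 50.1% in null C, against 6.09% in null A, 7.60% in null B and 7.60% to 9.91% in siblings A to C.

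*gap43*, the classical growth-associated gene of regenerating axons, had 205, 342 and 351 CPM in the null libraries of repeats A, B and C, against 333, 636 and 305 CPM in the sibling libraries. The groups overlapped, and sibling B was the highest of the 6. Means were 299 ± 82.1 CPM in null and 425 ± 183 CPM in sibling libraries (SD, n = 3 each). The null level was 0.614 and 0.538 times the sibling level in repeats A and B and 1.15 times in repeat C. Fewer expressing cells and less RNA per cell cannot be told apart in such bulk levels. After TMM normalization the log2 fold change, null over sibling, was 0.11 (SE 0.61, edgeR adjusted p = 1.00), but it was -0.51 when libraries were scaled by gene reads alone and -0.56 (SE 0.39) without null C. No direction can thus be given for *gap43*.

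*basp1*, which encodes the brain acid-soluble protein of the inner membrane and had the most reads of the 10 genes on average, had 5301, 4866 and 2445 CPM in the null libraries, against 5017, 3409 and 5089 CPM in the sibling libraries. Null C was lowest and the groups overlapped. Means were 4204 ± 1539 CPM in null and 4505 ± 950 CPM in sibling libraries (SD, n = 3 each), and the log2 fold change was 0.25 (SE 0.40, edgeR adjusted p = 1.00) with TMM, -0.10 with gene reads alone. Without null C it was 0.22 (SE 0.28).

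The Marcks genes encode substrates of protein kinase C that release phospholipids and leave the membrane when phosphorylated. *marcksl1b* had 3503, 3137 and 4767 CPM in the null libraries, against 2429, 2786 and 3099 CPM in the sibling libraries. Every null library was above every sibling library, with means of 3803 ± 855 CPM in null and 2772 ± 335 CPM in sibling libraries (SD, n = 3 each), and the null level was 1.44, 1.13 and 1.54 times the sibling level in repeats A, B and C. *marcksb* had 1539, 1360 and 2047 CPM in null libraries, against 1097, 1233 and 1369 CPM in sibling libraries, and was 1.4, 1.1 and 1.5 times the sibling level. Here the groups overlapped by a narrow margin, null B lying just under sibling C. Log2 fold changes were 1.09 (SE 0.55) for *marcksl1b* and 1.04 (SE 0.56) for *marcksb*, with unadjusted p of 0.083 and 0.096 and adjusted p = 1.00 by edgeR. With gene reads alone in place of TMM they were 0.46 and 0.42, and without null C 0.31 (SE 0.24) and 0.29 (SE 0.24).

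The other members of the family had fewer reads. *marcksl1a* had 331, 252 and 937 CPM in the null libraries, against 288, 406 and 357 CPM in the sibling libraries. Only null C exceeded all sibling libraries, at 2.31 times the highest of them. The log2 fold change was 1.37 (SE 0.81, edgeR adjusted p = 1.00), and -0.21 (SE 0.27) without that library. *marcksa* had 209, 175 and 260 CPM in null libraries, against 170, 228 and 146 CPM in sibling libraries, and the groups overlapped. Its log2 fold change was 0.87 (SE 0.60, edgeR adjusted p = 1.00), and 0.15 (SE 0.27) without null C.

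*gpm6aa* had 1104, 1196 and 1031 CPM in the null libraries, against 939, 912 and 985 CPM in the sibling libraries. Every null library was above every sibling library, by a small margin, with means of 1110 ± 82.9 CPM in null and 945 ± 37.2 CPM in sibling libraries (SD, n = 3 each). The log2 fold change was 0.74 (SE 0.46, edgeR adjusted p = 1.00) with TMM, 0.23 with gene reads alone and 0.34 (SE 0.22) without null C. Its paralogue *gpm6ab* had 4073, 3944 and 1217 CPM in null libraries, against 3654, 2415 and 3608 CPM in sibling libraries. Null A and null B were the highest of the 6 and null C the lowest. The log2 fold change of *gpm6ab* was 0.20 (SE 0.43, edgeR adjusted p = 1.00), -0.066 with gene reads alone and 0.36 (SE 0.28) without null C.

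The β-thymosins gave the largest estimates of the 10 genes, and these lay in a single library. *tmsb* had 155, 176 and 4827 CPM in the null libraries of repeats A, B and C, against 125, 197 and 195 CPM in the sibling libraries. *tmsb4x*, the zebrafish counterpart of thymosin β4, had 900, 1081 and 8292 CPM in null libraries, against 1020, 1126 and 1083 CPM in sibling libraries. Null C held 46235 reads of *tmsb* and 79435 reads of *tmsb4x*, at 24.5 and 7.37 times the highest sibling level in CPM. Null A and null B averaged 0.959 times the sibling mean for *tmsb* and 0.920 times for *tmsb4x*, and they overlapped the siblings. Log2 fold changes were 4.44 (SE 1.58, unadjusted p = 0.022) for *tmsb* and 2.68 (SE 1.11, unadjusted p = 0.041) for *tmsb4x*, with edgeR adjusted p = 1.00 for both. Without null C they were -0.0038 (SE 0.30) and -0.062 (SE 0.23), and with the repeat as a block, in which the libraries of a repeat are paired, 1.57 (SE 1.23, unadjusted p = 0.24) and 1.14 (SE 0.93, unadjusted p = 0.26). DESeq2, the tool of the study, gave no p for *tmsb*, *tmsb4x* and *marcksl1a*, as it does for a gene with an extreme count in 1 library.

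**Figure D2:**
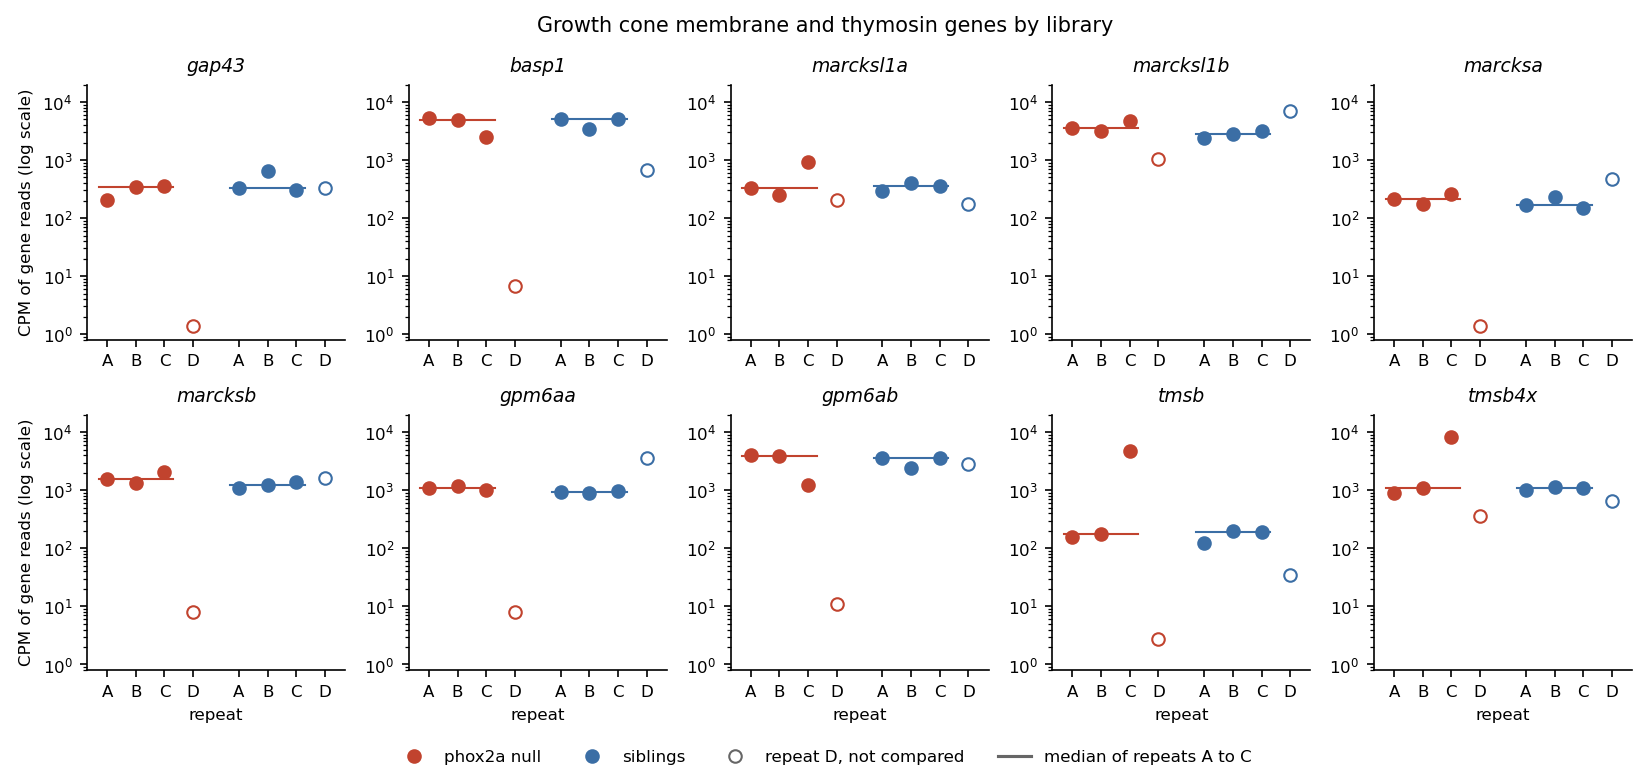
Each panel gives a gene's level in CPM of gene reads on a log axis, with null libraries of repeats A to D on the left and sibling libraries on the right. Lines mark the median of repeats A to C, and open circles are repeat D; *tmsb* (4827 CPM) and *tmsb4x* (8292 CPM) stand out in null C, where *basp1* (2445 CPM) and *gpm6ab* (1217 CPM) were at the lowest level of repeats A to C.

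Markers of other cells were read beside the high thymosin level, since thymosins are expressed widely outside neurons. Skin markers (13 genes) reached a sum of 3139 CPM in null C, against 93.3 CPM in null A and 9.50 CPM in null B. Most of that sum was on *krt4* (1510 CPM), *cyt1* (875 CPM), *cldne* (338 CPM) and *krt8* (283 CPM), while 3 of the 13 genes had 0 reads in null C, *tp63* and *cldni* among them. *epcam*, of the same list, had 14.9, 0.396 and 2.92 CPM in null libraries, against 91.5, 53.9 and 177 CPM in sibling libraries. All null libraries were thus below the siblings, as for 9.59% of genes tested. The skin sum was as high in sibling A, at 3592 CPM, where *tmsb* was at 125 CPM and *tmsb4x* at 1020 CPM, and it was 100.1 CPM in sibling B and 593 CPM in sibling C. Of 12 markers of microglia, macrophages and leukocytes, 11 had 0 reads in null C, among them *mpeg1.1*, *ptprc* and *lcp1*, and the sum was 0.313 CPM, as low as the sum of 8 erythroid markers. Leukocyte markers summed to 73.0 and 107 CPM in null A and null B and 34.9 to 203 CPM in the sibling libraries, nearly all of it *apoeb*. Single markers of further cell types were high in null C, and are named after their values were seen. *cx43*, of the glial list, was at 246 CPM there and at most 8.52 CPM in the other 5 libraries. *pvalb9*, of the hair cell list, was at 91.3 CPM, against at most 2.06 CPM, and *col1a2*, a collagen gene of the connective tissue list, at 59.1 CPM, against at most 3.86 CPM. Other markers on these lists had no reads in it, namely 6 of 12 glial, 6 of 10 hair cell and 7 of 10 connective tissue markers. *otofb*, also of the hair cell list, had 221, 65 and 40 reads in null libraries, against 1, 0 and 0 reads in sibling libraries. Every null library was above every sibling library for it, as for 1.66% of genes tested (edgeR unadjusted p = 0.0035). *mpz*, of the glial list, had 0 reads in each null library, against 19, 104 and 153 reads in sibling libraries (edgeR unadjusted p = 0.011). The glial sum was 2077, 1487 and 880 CPM in null libraries A, B and C, against 1049 to 1804 CPM in siblings. Hair cell markers summed to 155, 35.8 and 98.3 CPM in null libraries, against 17.7 to 35.4 CPM in siblings, and connective tissue markers to 10.2, 34.2 and 66.2 CPM, against 2.80 to 49.6 CPM. Whether the unaligned reads, the few detected genes or the transcripts of other cells in that library have a part in its thymosin level was not tested.

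A gene was called when edgeR's adjusted p was under 0.05 and its log2 fold change was over 2 in size. Of the 14824 genes 0 were called (0%), and 0 of the 10 genes. At an unadjusted p under 0.05, 477 genes passed, 364 of them higher in null (2.46%), among them *tmsb* and *tmsb4x*, and 113 lower (0.762%). DESeq2 called 129 of 15127 genes that it gave an adjusted p (0.853%), and 0 of the 7 genes here that had one. All 10 estimates were above 0, as were those of 44.1% of genes tested, and the median over the 10 genes was 0.96 against -0.15 over all genes. These estimates rest on the TMM scale, on which null C weighs more than in CPM: *marcksl1b*, for example, was at 9277 CPM there, against 2866 to 3165 CPM in null A and null B and 2101 to 2796 CPM in siblings. With gene reads alone as the scale, 7 of 10 were above 0 and the medians were 0.33 and -0.36.

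The fit without null C had 16687 genes tested, of which 675 had an unadjusted p under 0.05 (4.05%), and 0 of the 10 genes did. The estimates of 6 of the 10 genes were then above 0, as were those of 48.3% of all genes, and the medians were 0.19 and -0.03. The median over the 10 genes thus fell from 0.96 to 0.19 when null C was left out. Every null library was above every sibling library for 2 of the 10 genes in CPM, *marcksl1b* and *gpm6aa*, and 1.66% of genes tested did the same. On the TMM-normalized scale it was 3 of the 10, *marcksb* being the third, against 3.09% of genes tested.

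**Figure D3:**
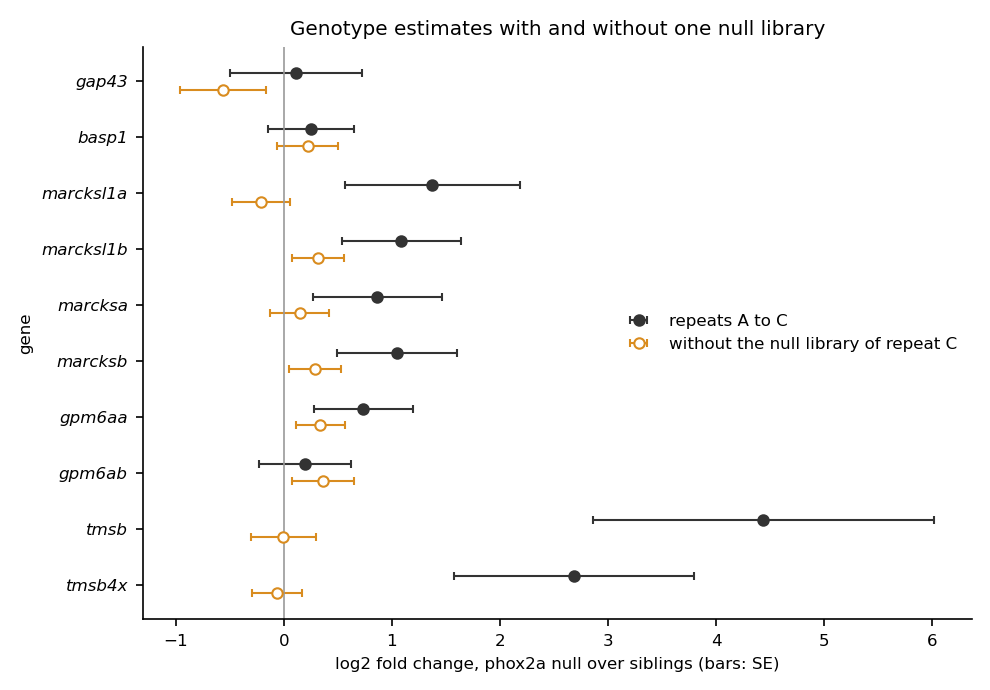
Points give the log2 fold change of each gene, null over sibling, by edgeR, and bars its standard error; filled points use repeats A to C and open points leave out null C. Without it the estimates lay between -0.56 for *gap43* and 0.36 for *gpm6ab*, and those of *tmsb* (4.44) and *tmsb4x* (2.68) moved to -0.0038 and -0.062.

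The ratio of reads between paralogues within a library does not depend on how libraries are scaled. For *gpm6aa* over *gpm6ab* it was 0.271, 0.303 and 0.847 in the null libraries, against 0.257, 0.378 and 0.273 in the sibling libraries. For *tmsb* over *tmsb4x* it was 0.172, 0.163 and 0.582 in null libraries, against 0.123, 0.175 and 0.180 in sibling libraries. In both pairs null C was well above the other 5 libraries, which lay close together. The ratio of *marcksl1a* over *marcksl1b* was 0.0944, 0.0803 and 0.197 in null libraries, against 0.119, 0.146 and 0.115 in sibling libraries, so that the null libraries were both lowest and highest. *marcksa* over *marcksb* stood at 0.136, 0.129 and 0.127 in null libraries, within the sibling range of 0.107 to 0.185. Differences of the mean log2 ratio, null minus sibling, were 0.46, 0.69, -0.14 and -0.16 in this order. Two-sided exact permutation tests of 3 against 3 libraries, which cannot go below p = 0.1, gave p of 0.6, 0.6, 0.8 and 0.6 (0.8 for each after Benjamini-Hochberg adjustment over the 4 pairs). Reads that paralogues share cannot be seen in the counts per gene, and reads with several alignments were counted on no gene.

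A pair outside that set held the steadiest ratio, and was singled out after its values were seen. *marcksl1b* over *marcksb* was 2.28, 2.31 and 2.33 in the null libraries of repeats A, B and C, against 2.21, 2.26 and 2.26 in the sibling libraries. The SD of this log2 ratio over the 6 libraries was 0.0252, against 0.248 for the next of the 45 pairs that the 10 genes form, *basp1* over *gpm6ab*. It held in null C, where both genes were at their highest in CPM and the ratios of *gpm6aa* over *gpm6ab* and *tmsb* over *tmsb4x* stood far from the other libraries. Among 14823 genes tested, *marcksb* was the gene whose ratio to *marcksl1b* varied least, and *srsf2a*, which encodes a splicing factor, came next with an SD of 0.113. These points share library, depth and the level of the genes, and the steadiness is a description.

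**Figure D4:**
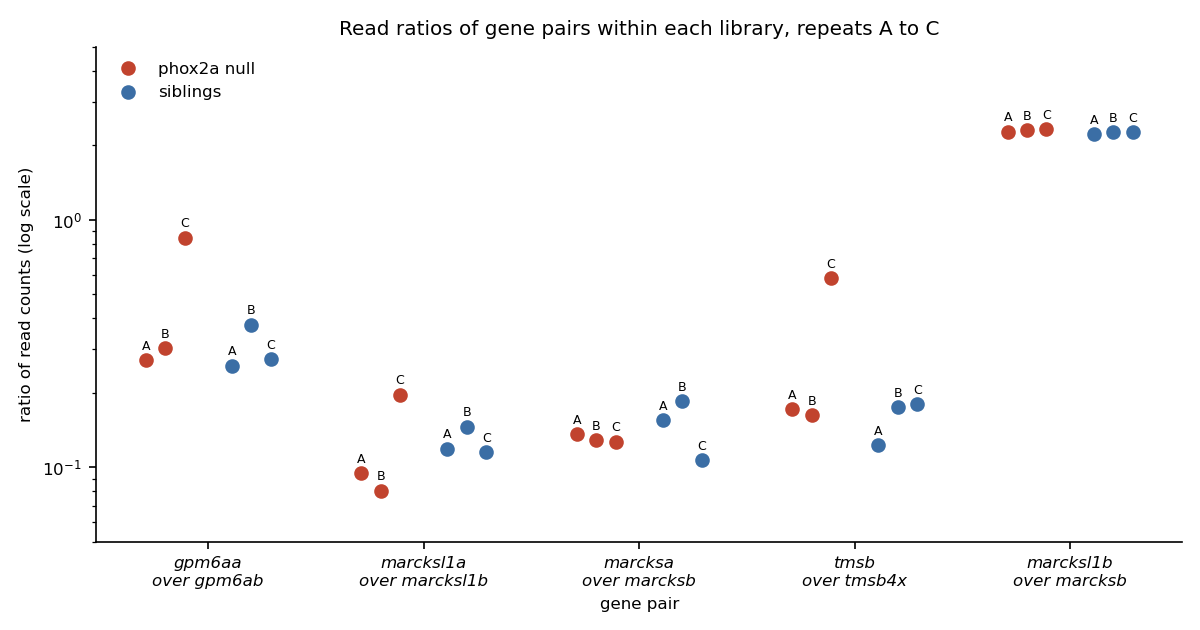
Ratios of read counts within each library (log axis) for 5 gene pairs, null libraries left of sibling libraries, each point lettered by repeat. Null C sits apart at 0.847 for *gpm6aa* over *gpm6ab* and 0.582 for *tmsb* over *tmsb4x*, whereas *marcksl1b* over *marcksb* stayed between 2.21 and 2.33.

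The nearest relatives of these genes were read from lists chosen by function. Of the other β-thymosins, *tmsb2* had 237, 281 and 490 CPM in null libraries, against 276, 264 and 257 CPM in sibling libraries, highest again in null C. *tmsb1* had 39.2, 39.3 and 203 CPM in null libraries, of which null C was again highest, against 180, 129 and 231 CPM in sibling libraries. In repeats A and B its null level was 0.218 and 0.306 times the sibling level, and only null C overlapped the siblings. Its log2 fold change was -0.01 (SE 0.97, edgeR adjusted p = 1.00), and -2.15 (SE 0.37, unadjusted p = 6.0e-04, edgeR adjusted p = 1.00) without that library. In the proteolipid family, *plp1b* had 523, 627 and 382 CPM in null libraries, against 229, 446 and 509 CPM in sibling libraries, and *gpm6ba* and *gpm6bb* stayed under 100 CPM in each.

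Of 13 tested genes for calmodulin and protein kinase C, the partners that bind or phosphorylate Gap43 and Marcks, 0 were called. In null libraries 10 estimates were higher and 3 lower, while 44.1% of genes tested were higher. Without null C 7 were higher and 6 lower, and 48.3% of all genes were higher. The median over the list was 0.38 against -0.15 over all genes, and 0.04 without null C. *calm3b*, the calmodulin gene with most reads, had 3491, 3436 and 582 CPM in null libraries, against 3759, 2181 and 3287 CPM in sibling libraries, low in the same library as *basp1* and *gpm6ab*. *calm2b* had 1467, 1553 and 986 CPM in null libraries, against 1646, 1424 and 1358 CPM in sibling libraries. Of 19 tested genes for actin and its monomer and filament partners, 0 were called, and 1 was higher and 2 lower at an unadjusted p under 0.05. Over all genes tested these shares were 2.46% and 0.762%. The higher gene was *twf1b*, a twinfilin that caps filaments and binds monomers, with 3.77, 38.6 and 216 CPM in null libraries, against 1.80, 2.76 and 6.54 CPM in sibling libraries. Its log2 fold change was 5.56 (SE 1.67, edgeR adjusted p = 1.00), and 2.56 (SE 1.18, unadjusted p = 0.066) without null C. The study, which used DESeq2, listed *twf1b* among the genes significantly higher in null larvae. By in situ hybridization it then saw, qualitatively, no difference for this gene in projection neurons. The lower genes were *pfn1*, a profilin, with a log2 fold change of -3.17 (SE 1.32, edgeR adjusted p = 1.00), and the cofilin-like gene *cfl1l*, which had 3, 0 and 0 reads in null libraries, against 708, 895 and 379 reads in sibling libraries. Both were also at an unadjusted p under 0.05 without null C. In its data not filtered for projection neurons, the study listed *cfl1l* among the genes significantly lower in null larvae. *actb2*, a main cytoplasmic actin gene, had 1628, 1329 and 2248 CPM in null libraries, against 1663, 1425 and 1542 CPM in sibling libraries. *actb1* went the other way in null C, with 1736, 1148 and 880 CPM in null libraries, against 1785, 1305 and 1922 CPM in sibling libraries. *cfl1*, a cofilin gene, was at 2385 CPM in null C, against 277 to 474 CPM in the other 5 libraries. Null C was the highest of the 6 libraries for 4 of the 20 genes of this list in the count table. The list's median was -0.08, and -0.03 without null C.

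Of the stathmins and collapsin response genes, which regulate microtubules in the growth cone, 0 of 13 were called, with a median of -0.03 both with and without null C. *stmn1b* had 10460, 10755 and 4962 CPM in null libraries, against 8387, 6403 and 9032 CPM in sibling libraries, and again null C was lowest. *dpysl2b* had 154, 101 and 5.43 CPM in null libraries, against 318, 295 and 295 CPM in sibling libraries. All null libraries were below all sibling libraries, as for 9.59% of genes tested. The log2 fold change of *dpysl2b* was -1.70 (SE 0.84, edgeR unadjusted p = 0.077), and -1.19 (SE 0.28, unadjusted p = 0.0037) without null C. In that fit it was the 1 gene of the list lower at an unadjusted p under 0.05, against 2.32% of all genes. Of 8 tested genes of axonal adhesion 0 were called. All 8 estimates were lower in null, as were those of 55.9% of genes tested, and 6 of 8 without null C, against 51.7%. The median was -0.70, or -0.22 without that library. The 1 gene lower at an unadjusted p under 0.05, against 0.762% of all genes, was *cntn2*, which encodes the axonal adhesion protein contactin 2. It had 16.2, 16.1 and 1.36 CPM in null libraries, against 53.0, 69.1 and 42.6 CPM in sibling libraries (log2 fold change -2.14, SE 0.91, edgeR adjusted p = 1.00). Without null C its log2 fold change was -1.70 (SE 0.43, edgeR unadjusted p = 0.0052), and it was again the 1 gene of the list, against 2.32% of all genes. The list of growth cone G proteins and palmitoylation, which holds the enzymes that attach palmitate, had 0 of 11 genes called and a median of -0.19, also with and without null C. *gnao1a*, for the G protein that Gap43 stimulates in mammals, had 346, 375 and 177 CPM in null libraries, against 397, 455 and 387 CPM in sibling libraries.

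Transcription factors tied to axon growth had 0 of 9 called, with a median of -1.02, or -0.56 without null C. *jun* had 206, 205 and 48.5 CPM in null libraries, against 378, 524 and 298 CPM in sibling libraries, and *atf3* had 101, 50.7 and 45.1 CPM in null libraries, against 115, 187 and 276 CPM in sibling libraries. All null libraries were below all sibling libraries for both genes, as for 9.59% of genes tested, with unadjusted p of 0.058 and 0.088 and edgeR adjusted p = 1.00. Without null C the log2 fold changes were -0.89 (SE 0.29, unadjusted p = 0.017) for *jun* and -1.30 (SE 0.48, unadjusted p = 0.031) for *atf3*, with edgeR adjusted p = 1.00. In that fit 4 of the 9 genes were lower at an unadjusted p under 0.05, against 2.32% of all genes, and in the fit of all 6 libraries 0 were. Both genes are also induced by cell dissociation, and the 18 markers of that response summed to 1076, 1130 and 1346 CPM in null libraries, against 1721, 2058 and 2430 CPM in sibling libraries. In null C this sum joins opposite values. *hsp70.3* (463 CPM), *btg2* (291 CPM) and *ier2b* (225 CPM) were above all other libraries and made up 979 CPM of it, whereas 6 of the 18 markers, *fosb* and *egr1* among them, had 0 reads. The 15 other markers summed to 976, 1014 and 367 CPM in null libraries, against 1589, 1837 and 2251 CPM in sibling libraries. In the fit without null C, 8 of all 18 dissociation markers were lower at an edgeR unadjusted p under 0.05, against 2.32% of all genes. *jun* and *atf3* were among these 8, and the median over the 18 was -1.14. The part of dissociation in these levels was not tested.

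Repeat D was read as values only. Its null library had 735217 gene reads on 2214 genes, and the 10 genes together had 1232 of them, of which *marcksl1b* had 780, *tmsb4x* 270 and *marcksl1a* 153. The other 7 genes had 1 to 8 reads each, too few for a level to be compared. Sibling D had 15865368 gene reads but on 6211 genes only. There *gpm6aa* was at 3546 CPM and *marcksl1b* at 6964 CPM, above all libraries of repeats A to C, and *basp1* at 684 CPM and *tmsb* at 34.5 CPM, below all of them. The ratio of *marcksl1b* over *marcksb*, steady in the other repeats, was 4.30 in that library. With all 4 repeats in the fit, 40 genes were called and 0 of the 10 genes, and 7 of their 10 estimates were above 0.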

How the data were processed

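The authors deposited raw counts, whole reads per gene and library, after alignment to GRCz11 with Kaede and GFP sequences added; the aligner and counting program are not given in the sources used here. Libraries were made with a SMART-Seq HT kit. A second deposited table of normalized values was not used. 5 rows that name no gene held 41.2% to 98.1% of listed reads and were left out of every total and test. Columns carry a genotype and a run code, and repeats were lettered A to D by that code. Repeat D was taken as the repeat that the study left out.

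Counts-per-million (CPM) refer to reads on genes. Genotypes were compared with edgeR 4.0.16 in R 4.3.3 (filterByExpr, TMM, glmQLFit, glmQLFTest; Benjamini-Hochberg over 14824 genes; standard errors from the coefficient and its F statistic) over repeats A to C, without a block. A call required an adjusted p under 0.05 with a log2 fold change above 2 in size. Other settings tried were DESeq2 1.42.0, RLE factors, gene reads alone, no filter, a block for the repeat, repeats A to D together, and the removal of each library. Paralogue ratios had 0.5 added to each count.

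Both genotypes came from each repeat by the study's design, which pairs the libraries. Deviations of paired libraries from their genotype means correlated over 14824 genes at r of 0.027, 0.082 and 0.050 in repeats A, B and C. Between libraries of unlike repeats r was lower, at -0.065 to 0.0011. These small values do not show that the pairing can be left out. With the repeat as a block in edgeR the median over the 10 genes was 0.68, against 0.96 without it. Libraries came from separate pools of larvae, and p-values measure the spread between them. The members and lists were chosen with earlier results of these data known. Named genes are the 10 genes in every library, *phox2a*, and in the other lists the called genes or the 3 with the highest sibling mean, of which some are given. Some genes of those lists at an unadjusted p under 0.05 were added after their values were seen. So were the single skin, glial, hair cell, connective tissue and dissociation markers, *cfl1* and *srsf2a*. Further genes at that threshold are not named. Names were matched to a RefSeq table of GRCz12tu, so no coordinates are given.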

Additional observations from a re-analysis of the deposited data

Results flagged for a closer look

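For each of the 10 genes the 4 libraries of a genotype, repeat D included, were searched for a library whose gap to its nearest neighbour was larger, relative to the range, than Dixon's critical value for 4 samples. This gave 20 groups. Chance flags about 1 in 20 where groups are independent, but these groups share the same libraries. They also include repeat D, with few detected genes, so the number flagged is a description. In all, 7 values stood out. 3 of them were in null C (the null library of repeat C), the highest of the 4 null libraries, with *marcksl1a* at 937 CPM, *tmsb* at 4827 CPM and *tmsb4x* at 8292 CPM. 3 were in repeat D, with *gpm6aa* at 8.16 CPM, from 6 reads, as the lowest of the null libraries, and *gpm6aa* at 3546 CPM and *marcksl1b* at 6964 CPM as the highest of the sibling libraries. The seventh was *gap43* at 636 CPM in sibling B, the highest of the sibling libraries, whose other members lay at 305 to 333 CPM.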

How the results depend on the processing

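Calls by edgeR over repeats A to C numbered 0, and 0 without each library in turn, but were 129 with DESeq2, 289 with DESeq2 and a replicate block, and 40 with all 4 repeats. Genes at an unadjusted p under 0.05 numbered 477, and 1219 with DESeq2, 1585 with DESeq2 and the block, 1228 without a filter, 233 with gene reads alone, 101 with the replicate block in edgeR, and 281 to 1404 without each library in turn. The median over the 10 genes stayed above 0 in every alternative, at 0.19 to 1.22. Estimates changed sign with gene reads alone for *gap43* (-0.51), *basp1* (-0.10) and *gpm6ab* (-0.066), with the replicate block for *gap43* (-0.052), and with all 4 repeats for *gap43* (-0.19), *gpm6aa* (-0.36) and *gpm6ab* (-0.14). Without each library in turn they ran between -0.56 and 0.47 for *gap43*, -0.21 and 1.79 for *marcksl1a*, -0.0038 and 4.98 for *tmsb*, -0.062 and 3.16 for *tmsb4x*, and -0.0018 and 0.36 for *gpm6ab*. The block changed no call of the 10 genes. Log2 ratio differences ran between -0.056 and 0.77 for *gpm6aa* over *gpm6ab*, -0.53 and 0.11 for *marcksl1a* over *marcksl1b*, -0.38 and 0.019 for *marcksa* over *marcksb*, and 0.091 (without null C) and 1.01 for *tmsb* over *tmsb4x*. With all 4 repeats they were 0.64 for *marcksl1a* over *marcksl1b* and -0.11 for *tmsb* over *tmsb4x*. The summed level of the 10 genes was 5121 CPM higher in null libraries, 14306 CPM on the TMM scale, 2039 to 6861 CPM without each library in turn and, an alternative chosen after seeing the data, 1227 CPM without *tmsb* and *tmsb4x*. Beyond the removal of a library, the cause of these changes was not tested.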
